A study of Homo sapiens with 288 samples.

Results

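Endothelial cells (EC) made from H1 human embryonic stem cells were compared by how strongly they expressed 5 genes of dividing cells, MKI67, TOP2A, CDK1, CCNB1 and CCNA2. Of the 45 EC cells of the EQ experiment, 38 held a summed expected count of at least 10 to the power 5.4 and had at most 31% of it in their 50 most abundant genes. These 38 cells were ranked by the sum of log2(CPM+1) of the 5 genes, called the marker sum, and the 12 highest (upper group) were set against the 12 lowest (lower group), with 14 cells between them. The 24 compared cells are among 288 single-cell libraries of the series. Because the cells were selected on measured values of these libraries, every difference below is a description, and no test was run.

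To obtain EC cells, H1 cells, an established embryonic stem cell line, were grown in E8 medium with BMP4 at 5 ng/ml and Activin A at 25 ng/ml for 2 days and then with VEGF and WNT for 3 days. Single cells were captured on the Fluidigm C1 device, and each cell's amplified full-length cDNA was sequenced again in the EQ, EQ-Vary and EQ-75% experiments. All 3 started from an equal amount of each cell's cDNA, EQ-Vary pooled unequal volumes of the resulting libraries, and EQ-75% repeated EQ from the cDNA onward at a lower sequencing depth. A cell number names the same cell in all 3, so they repeat the library preparation and sequencing of a cell but not the cell. The line is a single one and no separate cultures are named, so EC in EQ counts as 1 sample and the spread between cells stands in place of replicate error. In the earlier unequalized experiment on the same cDNA, cells seen as doublets or as dead in images had been removed, and no doublet caller was run here. H1-derived trophoblast cells (TB), grown in E7 medium with 50 ng/ml BMP4 and SB431542, were used only for a side-by-side value.

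A dividing cell copies its DNA in S phase and separates the copies in mitosis. Genes of mitosis are switched on late in the cycle, when CDK1 with cyclins A and B drives entry into mitosis, the spindle attaches to kinetochores, the anaphase-promoting complex (APC/C) releases the sister chromatids, and cytokinesis divides the cell. Endothelial cells early in differentiation are known to proliferate, whereas mature vessels are largely quiescent. MKI67 marks cycling cells, TOP2A untangles DNA, CDK1 is the mitotic kinase, and CCNB1 and CCNA2 encode its cyclins.

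Mitosis genes were spread unevenly within the upper group. In EQ, EC 12, EC 6, EC 2 and EC 7 had marker sums of 46.36, 45.88, 43.95 and 35.67, and they expressed 87, 86, 85 and 70 of the 94 tested genes of 6 mitosis lists at 10 CPM or more. EC 37 and EC 15 expressed 60 and 57 of them. The other 6 cells of the upper group expressed 16 to 34, which overlapped with the 18 to 36 of the lower group. The upper group is therefore named by its rule and not as mitotic cells.

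**Figure D1:**
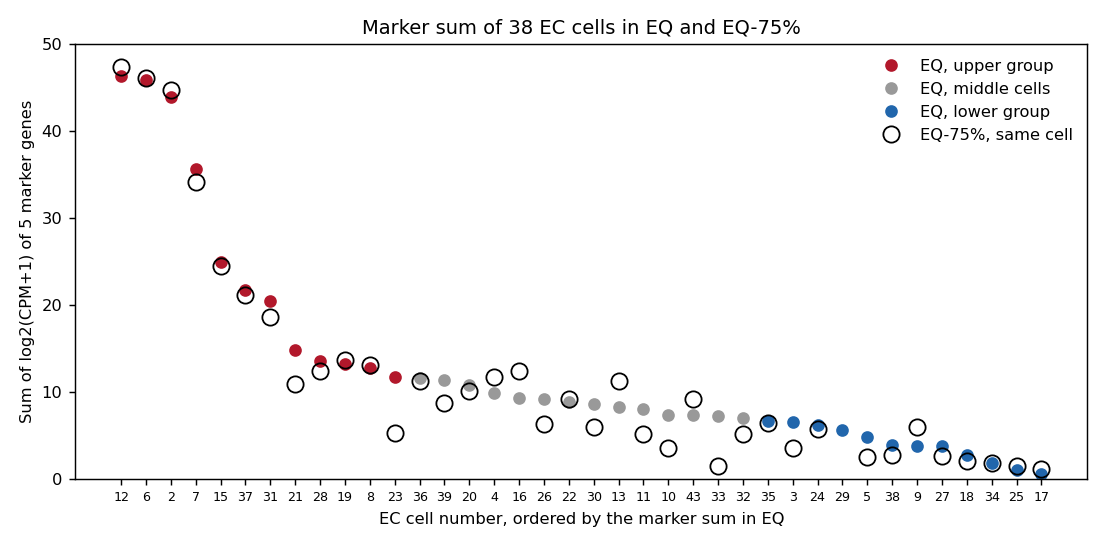
Marker sum of each of the 38 EC cells, the sum of log2(CPM+1) of MKI67, TOP2A, CDK1, CCNB1 and CCNA2, with cells on the x axis ordered by their value in EQ. Filled points are EQ and open circles are EQ-75% libraries of the same cells within the limits. EC 12, EC 6, EC 2 and EC 7 stand at 35.7 or higher in EQ, and the values run on without a gap across the borders of the groups.

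The border of the upper group lay between EC 23, with a marker sum of 11.67, and EC 36, with 11.55, and that of the lower group between EC 32, with 6.98, and EC 35, with 6.60. MKI67, TOP2A, CDK1, CCNB1 and CCNA2 were at 10 CPM or more in 7, 7, 8, 8 and 5 of the 12 upper cells, and in the lower group no marker reached 10 CPM in any cell. Within the upper group the 5 genes did not go together in every cell. CCNB1 was at 547 CPM in EC 37, where CDK1 had no count and CCNA2 was at 0.66 CPM. CDK1 was at 138 CPM in EC 21, where TOP2A had no count. MKI67 was at 171 CPM in EC 8, the only one of its 5 markers at 10 CPM or more. The middle cells overlapped with such patterns, as CCNB1 was at 275 CPM in EC 36 and TOP2A at 164 CPM in EC 39.

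In the EQ-75% libraries of the same cells, the marker sum was 24.3 ± 15.0 (SD, n = 12) in the upper group and 3.24 ± 1.88 (SD, n = 11) in the lower group, a difference of 21.1. EC 29 of the lower group fell outside the limits in EQ-75%. Of the upper cells, 10 of 12 were again in the upper group of EQ-75%, and 8 of 11 lower cells were again in the lower group. Over the 37 cells within the limits in both, Pearson's r of the marker sums was 0.985 and Spearman's rho 0.912, for points that share their cDNA. EC 23, the last cell of the upper group, had 11.67 in EQ and 5.26 in EQ-75%.

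One cell went against its label. EC 15, at rank 5 of the 38, had the lowest mean over 47 tested endothelial genes, 3.06 on the log2(CPM+1) scale, against 4.17 or more in the other 37 cells. KDR, the main VEGF receptor, was at 51.3 CPM in EC 15 and at a median of 1859 CPM in the others, and CDH5, the endothelial cadherin, was at 34.4 and 342 CPM. NANOG and POU5F1, transcription factors of pluripotent cells, were at 1502 and 384 CPM in EC 15 and at medians of 32.04 and 12.4 CPM in the other 37 cells, while SOX2 was listed at 0 in all 38. The pluripotency genes did not all go together in EC 15. L1TD1 was at rank 1 of 38 (664 CPM), DPPA4 at rank 4 and LIN28B at rank 15 (16.9 CPM). SALL4 was at 59.8 CPM, against a lower-group median of 86.9 CPM. SOX17 of the endothelial list was at 229 CPM in EC 15, against a lower-group median of 1.59 CPM. The keratin KRT8 was at 1696 CPM in EC 15 against a median of 38.1 CPM. In EQ-75%, the NANOG level of EC 15 was 1507 CPM and that of KDR 41.1 CPM. NANOG, POU5F1, SOX2, DPPA4 and CDH5 were looked up after their values were seen.

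Library sizes overlapped between the groups. Summed counts ran from 471593 to 3966801 in the upper group (median 1896217) and from 1564205 to 3597148 in the lower group (median 2171755). The smallest libraries were in the upper group, where EC 21, EC 23 and EC 28 held 471593, 700841 and 1285271 counts, below every lower cell. Over the 38 cells, marker sum and summed count had a Spearman's rho of -0.30 and a Pearson's r of 0.03. The median number of genes with a rounded count of at least 1 was 8941 in the upper and 8705.5 in the lower group, and the 50 top genes held a median of 17.0% of the counts in each. In EC 23, the last cell of the upper group, the 50 top genes held 23.1%, against at most 22.2% in the lower group. EC 12, EC 6, EC 2 and EC 7 held 1589726 to 3966801 counts. With every library thinned to 250000 counts the median difference of the mitosis lists was 1.82, as it was with all counts. The groups were kept as ranked with all counts, so an effect of depth on the ranking was not tested.

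Genes detected in at least 10 of the 38 cells were compared and are called tested, although no statistical test was run. Of these 10598 genes, with the 5 markers left out, 152 were higher in the upper group by at least 2 on the log2(CPM+1) scale in both EQ and EQ-75% (1.43% of those tested), and 105 were lower by at least 2 in both (0.991%). The median difference over all tested genes was 0.07, so at least as many lay above 0 as below. Counts above 0 and past the limit in the lists below are to be set against this median and these shares. Nothing is read from such counts alone. For no tested gene did every upper cell lie above, or every lower cell above, all cells of the other group. The mitosis lists gave 38 of the 152 higher genes and 0 of the 105 lower ones, counts from which nothing is read because the rule used the same contrast. Over their 94 tested genes, 85 had a difference above 0 and the median was 1.82 in EQ and 1.76 in EQ-75%.

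That median depended on few cells. Without EC 12, EC 6, EC 2 and EC 7 it was 0.55 and 2 of the 94 genes, DLGAP5 and ASPM, were past the limit in both experiments. Without EC 15 it was 1.70 with 38 genes past the limit. As a list mean, the mitosis genes were at 4.22 ± 2.23 (SD between cells, n = 12) in the upper group, 2.51 ± 0.36 (n = 14) in the middle cells and 2.44 ± 0.29 (n = 12) in the lower group, so the SD of the upper group exceeded its distance from the lower one. Across the 38 cells, the marker sum and this list mean had a Pearson's r of 0.900 but a Spearman's rho of 0.279, for values that come from the same libraries. The 13 listed mitosis genes in the files that were detected in fewer than 10 cells, among them CENPA, NEK2 and PBK, were not tested, and 10 of them reached 10 CPM in at least 1 of the 4 highest cells and 2 in a lower cell.

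**Figure D2:**
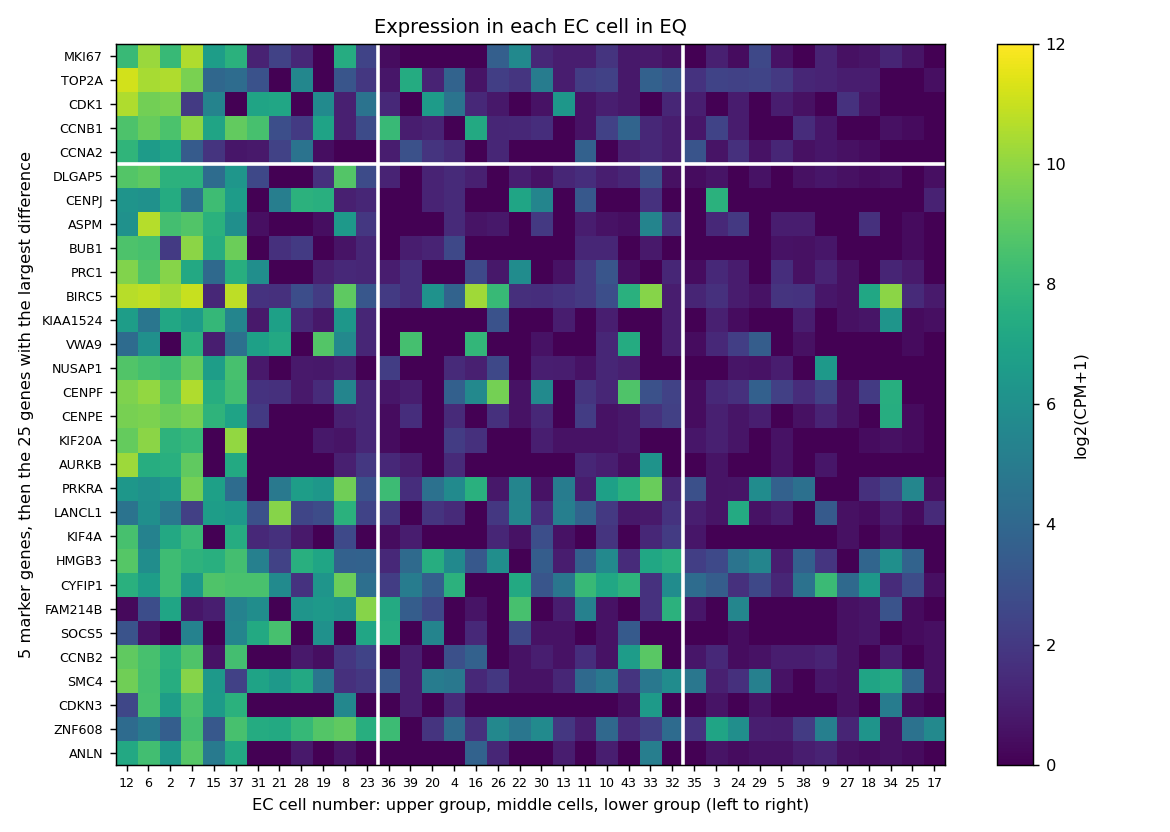
Expression as log2(CPM+1) in EQ of the 5 marker genes and the 25 genes with the largest differences (rows) in 38 EC cells (columns), ordered by marker sum, with white lines at the borders of the groups and below the markers. The first 4 columns and EC 37 are bright over most mitosis genes, EC 15 over only part of them, and the last 6 columns of the upper group over few mitosis genes.

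Among mitotic kinases and cyclins, BUB1, AURKB and CCNB2 had the largest differences. BUB1, a kinase of the spindle checkpoint, was at 398, 367, 3.11 and 977 CPM in EC 12, EC 6, EC 2 and EC 7, at 622 CPM in EC 37 and at 177 CPM in EC 15. The other 6 upper cells had at most 3.11 CPM and the lower group at most 0.64 CPM. AURKB, the Aurora kinase of the chromosomal passenger complex, was at 1204, 179, 188 and 532 CPM in the 4 highest cells and 157 CPM in EC 37. EC 15 had none, and no lower cell had over 0.64 CPM. CCNB2, the second B-type cyclin, was at 541, 357, 193 and 408 CPM in the 4 highest cells and 337 CPM in EC 37 but at 0.50 CPM in EC 15. As means, CCNB2 was at 4.03 ± 3.97 (SD, n = 12) in the upper and 0.68 ± 0.43 (SD, n = 12) in the lower group on the log2(CPM+1) scale. All 14 tested genes of this list had a difference above 0, and 5 were past the limit in both experiments. PLK1 and AURKA, further mitotic kinases looked up after their values were seen, were at 841 and 447 CPM in EC 12 and at 0 in EC 15. CKS1B, a CDK-binding subunit, and CDC25B, a phosphatase that activates CDK1, had the smallest differences, 1.13 and 0.38, and their groups overlapped widely, from 0 to 457 CPM above and from 0 to 330 CPM below for CKS1B.

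Genes of the APC/C and its checkpoint differed in both directions. CDC20, the activator of the APC/C in mitosis, was at 737, 162, 525 and 179 CPM in the 4 highest cells and at 792 CPM in EC 37. EC 15 had 14.9 CPM, the other 6 upper cells at most 1.43 CPM, and the lower group a median of 0.29 CPM with 1 cell at 283 CPM. UBE2C, its ubiquitin-conjugating enzyme, reached 762 CPM in EC 12 and 294 CPM in a lower cell, and BUB1B, a checkpoint kinase, was at 72.9 to 213 CPM in the 4 highest cells and at most 0.64 CPM in the lower group. The list median was 1.35, with 5 of 15 genes past the limit, but CDC27, a core subunit of the APC/C, and GMNN, the inhibitor of replication licensing, had differences of -1.31 and -1.09. CDC27 had a median of 4.09 CPM in the upper and 54.5 CPM in the lower group. GMNN was highest in the upper group in EC 15, at 206 CPM.

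The kinetochore list had a median difference of 1.78, with all 14 tested genes above 0 and 6 past the limit. BIRC5, survivin, was at 1665, 1822, 1344 and 2015 CPM in the 4 highest cells, at 1790 CPM in EC 37 and at 1.49 CPM in EC 15. In the lower group it had a median of 1.503 CPM, but 2 of 12 cells were at 10 CPM or more and the highest was at 964 CPM, so the groups overlapped. CENPF and CENPE, which link kinetochores to microtubules, were at 463 to 1519 CPM and 636 to 784 CPM in the 4 highest cells. SPC24, a subunit of the NDC80 complex, had a difference of 1.02 and was at 10 CPM or more in 11 cells of each group. One middle cell, EC 33, had a marker sum of 7.27 but BIRC5 at 910 CPM, CCNB2 at 486 CPM and AURKB at 70.4 CPM, with no count of NUSAP1, PRC1 or KIF20A.

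Spindle genes gave 13 of the 38 mitosis genes past the limit, of 24 tested, with a median difference of 2.16. DLGAP5, a microtubule-bundling protein, had the largest difference of all tested genes, 4.56 in EQ and 4.35 in EQ-75%. It was at 447, 520, 208 and 210 CPM in the 4 highest cells, at 76.8 CPM in EC 37, at 17.9 CPM in EC 15 and at 441 CPM in EC 8. No lower cell had over 0.64 CPM. Summed over cells, DLGAP5 had 4558 counts in the upper group (exact Poisson 95% interval 4427 to 4692) and 9 in the lower group (4.12 to 17.1), intervals that cover counting error only. ASPM, which acts at spindle poles, was at 66.0, 1622, 340 and 421 CPM in the 4 highest cells and at most 3.04 CPM in the lower group. PRC1, which holds the central spindle together, was at 857, 416, 914 and 151 CPM there and at most 1.96 CPM in the lower group. NUSAP1, a spindle-associated protein, was at 291 to 568 CPM in the 4 highest cells, and KIF20A, a kinesin of late mitosis, at 213 to 964 CPM with 1054 CPM in EC 37. The abundant microtubule genes of the list differed little. TUBA1B, an alpha tubulin, had medians of 3165 and 1981 CPM and a difference of 0.29, and STMN1, which destabilizes microtubules, had 2329 and 2215 CPM and -0.26.

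Cytokinesis genes had the highest list median, 2.54, with all 10 above 0 and 6 past the limit. ANLN, the scaffold of the contractile ring, was at 149, 327, 83.4 and 457 CPM in the 4 highest cells, 151 CPM in EC 37 and at most 1.28 CPM in the lower group. KIF23, a kinesin of the midbody, was at 67.3 to 619 CPM in the 4 highest cells and at 0 in EC 15. DEPDC1 was at 273 and 196 CPM in EC 12 and EC 6 and at 0 in EC 2, EC 7, EC 37 and EC 15. The chromosome structure list was mixed. SMC4 and NCAPG, subunits of condensin, had differences of 3.31 and 2.94, and NCAPG was at 271 to 635 CPM in the 4 highest cells and 0.33 CPM in EC 37. SMC2, the partner of SMC4, had a difference of -1.65 and the cohesin subunit RAD21 one of -1.50. Without the 4 highest cells those of SMC2 and RAD21 were -3.29 and -2.63, and their medians over the upper group were 15.9 and 153 CPM against 80.3 and 259 CPM in the lower group.

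**Figure D3:**
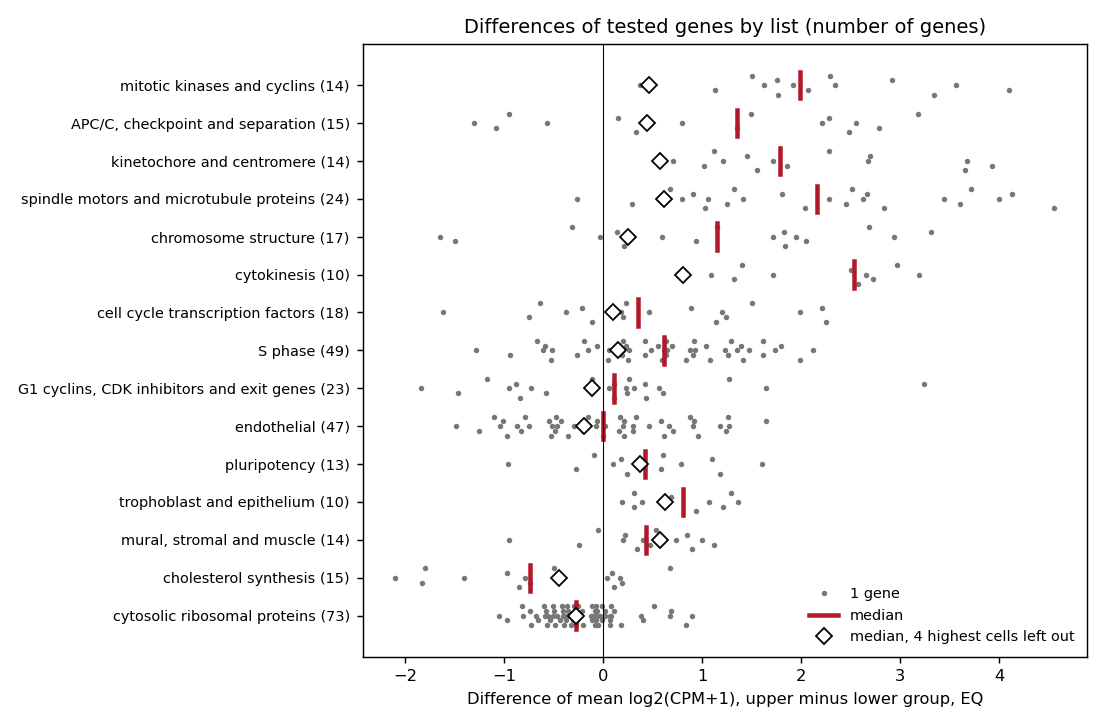
Difference of mean log2(CPM+1) between the upper and lower group in EQ (x axis) for the tested genes of 15 lists (rows, number of genes in parentheses). Grey points are genes, red bars list medians, and open diamonds the medians with EC 12, EC 6, EC 2 and EC 7 left out. The medians of the 6 mitosis lists run from 1.15 to 2.54 with all cells and from 0.25 to 0.81 without the 4 cells.

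Promoters are shown for the 5 mitosis genes with the largest differences whose window was in the table used, which leaves out BIRC5, because such genes are known to share a short element, the cell cycle genes homology region (CHR), bound by the MuvB complexes with DREAM, B-MYB or FOXM1, often next to CCAAT boxes bound by NF-Y. Each line gives RefSeq sequence on GRCh38.p14, from 250 bases before to 50 after the transcription start, 5′ to 3′ on the strand of the gene. The windows are DLGAP5 at chr14:55191536-55191835, ASPM at chr1:197146620-197146919, BUB1 at chr2:110678014-110678313 and PRC1 at chr15:90994486-90994785, all on the minus strand, and NUSAP1 at chr15:41332631-41332930 on the plus strand. Capitals mark the CHR letters TTTGAA, which read TTCAAA on the other strand, as well as TTCGAA, together with the box CCAAT, which reads ATTGG on the other strand, and, searched on either strand as E2F sites, the letters TTTGGCGC or else TTTCGCGC or else TTTCCCGC or else TTTGCCGC.
DLGAP5: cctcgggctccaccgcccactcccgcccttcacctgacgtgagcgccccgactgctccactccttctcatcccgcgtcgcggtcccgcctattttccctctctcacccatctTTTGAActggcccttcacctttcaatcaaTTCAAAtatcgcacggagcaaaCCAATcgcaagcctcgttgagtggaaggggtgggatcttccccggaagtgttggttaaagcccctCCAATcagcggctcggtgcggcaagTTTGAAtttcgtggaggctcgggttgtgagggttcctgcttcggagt
ASPM: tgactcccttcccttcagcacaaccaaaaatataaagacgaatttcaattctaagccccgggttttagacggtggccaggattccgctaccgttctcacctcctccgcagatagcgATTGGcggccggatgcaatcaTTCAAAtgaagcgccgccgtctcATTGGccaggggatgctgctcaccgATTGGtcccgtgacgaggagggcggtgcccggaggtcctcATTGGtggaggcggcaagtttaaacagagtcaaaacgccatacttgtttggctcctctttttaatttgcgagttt
BUB1: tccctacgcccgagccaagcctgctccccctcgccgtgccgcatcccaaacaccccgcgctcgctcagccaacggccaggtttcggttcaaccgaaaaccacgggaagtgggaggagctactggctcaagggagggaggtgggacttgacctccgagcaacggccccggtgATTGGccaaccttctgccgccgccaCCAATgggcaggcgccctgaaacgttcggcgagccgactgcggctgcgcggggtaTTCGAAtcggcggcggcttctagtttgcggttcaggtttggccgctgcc
PRC1: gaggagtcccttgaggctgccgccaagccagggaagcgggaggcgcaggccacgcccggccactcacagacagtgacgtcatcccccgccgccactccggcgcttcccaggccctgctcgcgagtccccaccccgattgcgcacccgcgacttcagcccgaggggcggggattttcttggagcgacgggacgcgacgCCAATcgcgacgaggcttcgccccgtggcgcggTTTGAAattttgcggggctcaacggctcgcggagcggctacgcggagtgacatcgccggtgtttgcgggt
NUSAP1: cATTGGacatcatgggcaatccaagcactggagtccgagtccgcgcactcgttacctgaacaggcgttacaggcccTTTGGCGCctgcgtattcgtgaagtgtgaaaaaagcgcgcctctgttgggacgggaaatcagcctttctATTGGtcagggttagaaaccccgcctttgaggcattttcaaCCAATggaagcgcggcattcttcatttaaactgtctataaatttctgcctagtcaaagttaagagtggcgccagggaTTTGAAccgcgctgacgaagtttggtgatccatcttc

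All 5 windows held a CHR match and a CCAAT box. With the start counted as base 1, the CHR letters began at base 4 in DLGAP5, at base 2 in BUB1 and at base 14 in NUSAP1, 20 bases before the start in PRC1 and 113 bases before it in ASPM. DLGAP5 held 2 further CHR matches, 138 and 109 bases before its start. ASPM had 4 CCAAT boxes, all reversed, the nearest 25 bases before the start. NUSAP1 was the only one of the 5 with E2F letters, 174 bases before its start.

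Shares of windows with these letters were counted over the gene groups. A window was found for 127 of the 152 higher genes, and 39 of those (30.7%) held a CHR match. Among the higher genes outside the mitosis lists the count was 15 of 95 (15.8%), among tested mitosis genes 52 of 78 (66.7%), among lower genes 11 of 89 (12.4%), among all tested genes with a window 11.4%, and among all 27305 windows 16.6%. A CCAAT box stood in 46.5% of the windows of higher genes, 37.3% of tested genes and 35.7% of all windows. E2F letters stood in 3.15%, 5.49% and 3.33%. Both forms of the CHR were counted together, and no match was checked for binding.

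Of the regulators of these genes, FOXM1, a transcription factor of mitotic genes, had a difference of 2.25 in EQ and 1.96 in EQ-75%, and was at 530, 38.03, 141 and 26.4 CPM in the 4 highest cells against at most 6.85 CPM in the lower group. MYBL2, which encodes B-MYB, was at 361 CPM in EC 37, 181 CPM in EC 15, and at 34.03, 26.05, 0.62 and 0 CPM in EC 12, EC 6, EC 2 and EC 7. RBL2, the p130 pocket protein of quiescent cells, had a difference of -1.62, with medians of 0.85 and 5.41 CPM. Over the 18 tested transcription factors of the list the median was 0.35, and E2F4 alone was past the limit.

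DNA replication genes differed less. The median difference over 49 tested S phase genes was 0.61, with 38 above 0 and 1, RRM2, past the limit in both experiments, and it was 0.15 without the 4 highest cells and 0.63 without EC 15. Without EC 15, RRM2 had a difference of 1.81 in EQ and 0 of the 49 genes were past the limit in both experiments. RRM2, a subunit of ribonucleotide reductase, was at 142, 52.6, 86.5 and 59.1 CPM in the 4 highest cells, at 156 CPM in EC 37 and at 395 CPM in EC 15. The other 6 upper cells had 4.27 to 18.7 CPM and the lower group 3.20 to 19.6 CPM, so these overlapped. TYMS, thymidylate synthase, was at 114, 188, 56.6 and 0 CPM in EC 12, EC 6, EC 2 and EC 7 and at 63.6 CPM in the highest lower cell. The helicase subunit MCM7 had a difference of -1.28.

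EC 15 had the highest S phase mean of the 38 cells, 4.43, followed by EC 12 at 4.01. PCNA, the replication clamp, was at 372 CPM and the helicase subunit MCM2 at 387 CPM in EC 15, whereas the 4 highest cells had 0, 2.60, 22.4 and 48.4 CPM of PCNA and at most 0.25 CPM of MCM2. Other S phase genes did not follow. TK1 was at 0 in EC 15 and EC 7 and at 66.3, 124.5 and 29.2 CPM in EC 12, EC 6 and EC 2. TYMS was at 136 CPM in EC 15, below the 188 CPM of EC 6. TPX2 and HMMR, spindle genes, were at 0 in EC 15. In EC 12, EC 6, EC 2 and EC 7 TPX2 was at 217, 636, 407 and 224 CPM. HMMR was at 145, 132, 89.6 and 0.63 CPM there, so EC 7 also had almost none. In the lower group EC 17, last in the ranking, had the highest S phase mean of its group, 3.41. PCNA, MCM2, TK1, TPX2 and HMMR were looked up after their values were seen.

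**Figure D4:**
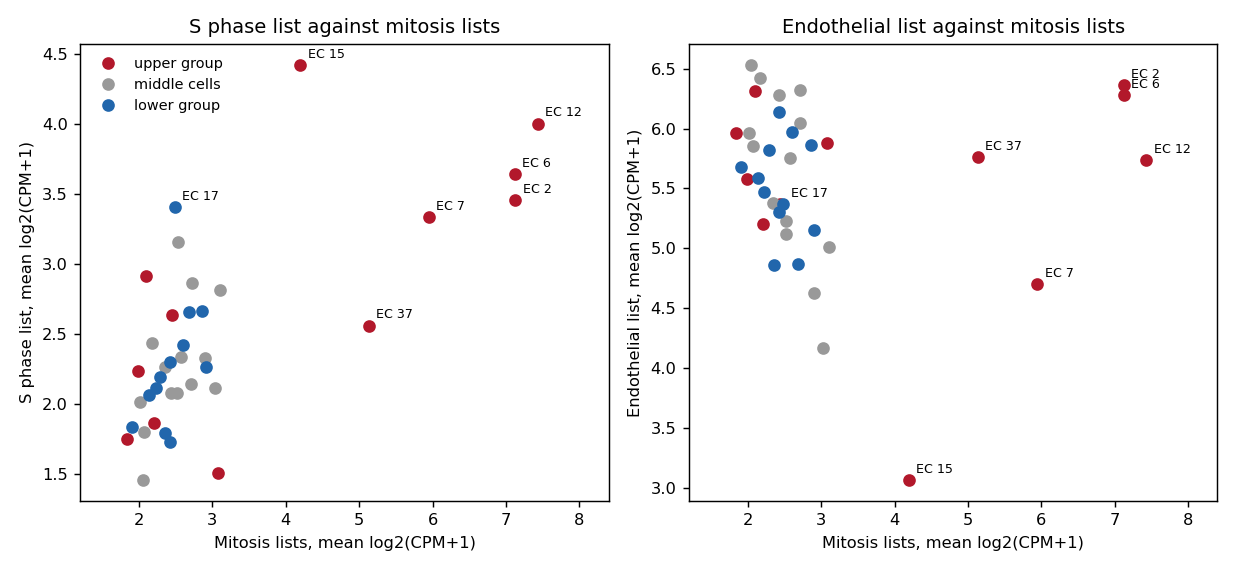
Mean log2(CPM+1) of 49 S phase genes (left) and 47 endothelial genes (right) against the mean of 94 mitosis genes (x axes) in each of 38 EC cells in EQ, coloured by group. EC 12, EC 6, EC 2 and EC 7 lie to the right at 5.95 or more, and EC 15 has the highest S phase mean (4.43) and the lowest endothelial mean (3.06). The other 6 upper cells overlap with the lower group but do not all lie within its range.

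Genes that hold cells in G1 or out of the cycle showed no common direction. Of 23 tested genes the median difference was 0.11, with 14 above 0. CDKN3, a phosphatase of CDKs that is itself a gene of late cycle, was the 1 past the limit, with 3.25 in EQ. It was at 363 CPM in EC 6, 388 CPM in EC 7 and 4.79 CPM in EC 12. SESN1, a target of p53, had -1.85 and the antiproliferative TOB2 -1.46, with medians of 53.2 CPM in the upper and 144 CPM in the lower group for TOB2.

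Endothelial genes differed in both directions. The median difference over 47 tested genes was 0.00 in EQ and 0.04 in EQ-75%, 24 were above 0, 37 lay within 1 of 0 and 0 were past the limit in either direction. Without EC 15 the median was 0.23. Over all tested genes, 1.43% were higher and 0.991% lower past the limit. Their differences in EQ had 5th and 95th percentiles of -1.32 and 1.48, so nothing is read from the endothelial counts. KDR had a lowest, median and highest value of 51.3, 1836 and 2476 CPM in the upper group and 66.6, 1400 and 2235 CPM in the lower group, with a difference of 0.16. PECAM1 had medians of 1002 and 1092 CPM and CD34 of 615 and 916 CPM. FLT1 and SOX7 were at 672 and 605 CPM in the upper and 457 and 474 CPM in the lower group. FLT4, the lymphatic VEGF receptor, had the largest difference, 1.64, and SOX18 the lowest, -1.49, with medians of 1.36 and 11.5 CPM. Over the 4 cells with the highest marker sums, the endothelial means were 5.74 in EC 12, 6.28 in EC 6, 6.36 in EC 2 and 4.70 in EC 7, against 4.86 to 6.14 in the lower group. EC 6 and EC 2 lay above that range, EC 12 within it and EC 7 below it.

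Markers of other cell types were present in both groups. For the pluripotency list, summed CPM ran from 203 to 4181 in the upper group and from 225 to 2444 in the lower group, and the median difference of 13 tested genes was 0.42, or 0.16 without EC 15. The pluripotency list mean was highest in EC 24 of the lower group, at 6.13, followed by EC 15 at 5.84. All 10 tested trophoblast and epithelium genes were above 0 in EQ with a median of 0.81, but EPCAM was at -0.10 in EQ-75%, where the median was 0.34. The EQ median was 0.62 without the 4 highest cells and 0.35 without these and EC 15. The summed CPM of these genes ran from 151 to 3990 in the upper group and from 72.6 to 1367 in the lower group. Mural and stromal genes summed to 675 to 5742 and 922 to 4556 CPM, and blood genes to 31.9 to 206 and 18.4 to 175 CPM, with GATA1, SPI1 and KLF1 at 0 in both groups. Of 13 mesoderm progenitor genes in the files, 6 were at 0 in both, EOMES and MIXL1 among them. The part of such genes in the differences was not tested.

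Of the 152 higher genes, 109 belonged to none of the lists. Most of all tested genes are in no list either, so nothing is read from this count. Among the 25 with the largest differences, 14 were mitosis genes and CDKN3 was the only other listed one. CENPJ, a centriole assembly factor, was at 21.4 to 164 CPM in the 4 highest cells and at 311 CPM in EC 15, with a difference of 4.41. KIAA1524, an inhibitor of the phosphatase PP2A now named CIP2A, was at 25.0 to 145 CPM in the 4 highest cells and 253 CPM in EC 15. SOCS5, a suppressor of cytokine signalling, was at 7.31, 0.52, 0 and 39 CPM in the 4 highest cells and at a median of 102 CPM in the other 6, against at most 0.61 CPM in the lower group. FAM214B, of less known function, and the zinc finger gene ZNF608 had medians of 73.4 and 222 CPM in those 6 cells. HMGB3, a chromatin protein, was at 57.8 to 450 CPM in the 4 highest cells, and CYFIP1, of the actin-regulating WAVE complex, was at 10 CPM or more in 11 upper and 6 lower cells.

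The 25 genes were also compared without EC 12, EC 6, EC 2 and EC 7. All 14 mitosis genes of the 25 had a smaller difference without them, at a median of 1.60 in place of 3.67. Of the other 11 genes 7 had a smaller one and the median was 3.69 in place of 3.44. SOCS5, FAM214B, ZNF608 and LANCL1, a glutathione-binding protein, had larger differences, 4.10, 4.204, 3.98 and 3.69. Of the 152 higher genes, 63 were among the 142 past the limit without the 4 cells, 2 of the 38 in mitosis lists and 61 of the other 114. The rule ranked these 4 cells highest and the 25 genes were picked with them included. Smaller differences of the mitosis genes were thus built in, and nothing is read from the contrast with the other genes.

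**Figure D5:**
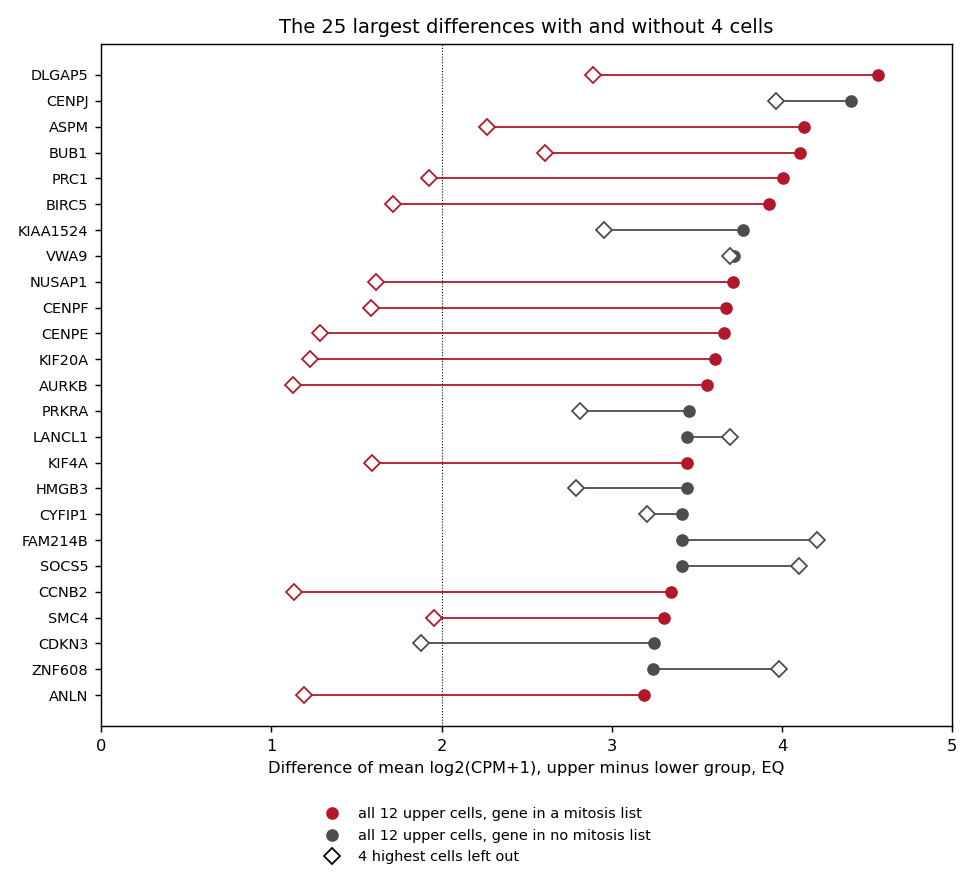
Difference of mean log2(CPM+1) between the upper and lower group in EQ (x axis) for the 25 genes with the largest values, with all 12 upper cells (filled) and without EC 12, EC 6, EC 2 and EC 7 (open diamonds). Red marks genes of the mitosis lists, whose medians are 3.67 and 1.60, grey the other 11, whose medians are 3.44 and 3.69, and the dotted line is the limit of 2.

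Of the 105 lower genes, 102 were in none of the lists, and DNAJB9, SQLE and NDUFS3 were the other 3. The lists hold only a small part of the 10598 tested genes, so nothing is read from this count. PFKFB4, which sets the level of a glycolytic activator, had the largest difference, -3.41 in EQ and -3.08 in EQ-75%, with a lowest, median and highest value of 0, 0.70 and 14.2 CPM in the upper and 0, 24.7 and 649 CPM in the lower group. CTCF, the insulator protein, had medians of 8.35 and 139 CPM but was at 273 CPM in EC 7 and 108 CPM in EC 2. PIAS1, a SUMO ligase, was at 30.9 to 405 CPM in all lower cells and at 0.76 to 208 CPM in the upper cells. KIDINS220, a membrane scaffold, was at 10 CPM or more in 6 upper and 11 lower cells. C1QBP, a mitochondrial protein, was at 10 CPM or more in 1 upper and 8 lower cells, and YTHDF1, a reader of methylated RNA, in 2 and 11. NPC1, which exports cholesterol from lysosomes, reached at most 1.43 CPM in the upper group and 117 CPM in the lower group. NTAN1, KLHL20, SEC24D, ZNF317, TPRG1L, PLCH1 and RNF5 had differences from -3.32 to -2.79. In these genes too the groups overlapped, and 93 of the 105 were still past the limit without the 4 highest cells, among 225 then lower.

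Several metabolic lists had medians below 0. Cholesterol synthesis genes had a median difference of -0.74 over 15 genes, and SQLE, squalene epoxidase, had medians of 41.5 and 184 CPM. Genes of the unfolded protein response had -0.68 over 11 genes, and DNAJB9, a chaperone cofactor of the endoplasmic reticulum, had 6.73 and 37.4 CPM. Glycolysis genes had -0.42, yet HK1, a hexokinase, was 1 of the 152 higher genes, with medians of 99.0 and 19.6 CPM. Matrix genes had -0.29, with FBN1, fibrillin-1, among the higher genes at 37.5 and 0.87 CPM. Respiratory chain genes had -0.23 over 76 genes and cytosolic ribosomal genes -0.27 over 73, with no ribosomal gene past the limit. The MTRNR2L genes, near-identical copies of mitochondrial rRNA sequence whose counts cannot be told apart with confidence, had 0.30 over 7. Immediate early and heat shock genes had -0.15 over 14.

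In TB cells of EQ ranked by the same sum, 16 upper cells had marker sums of 15.7 to 41.9 (median 25.1) and 16 lower cells of 0.92 to 8.44 (median 6.61). Their median differences were 1.65 over 103 mitosis genes, 1.17 over 56 S phase genes and -0.01 over 37 endothelial genes. For EC these were 1.82, 0.61 and 0.00, and the difference between the cell types was not tested.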

How the data were processed

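Single-cell libraries of 45 EC cells per experiment were analysed. The authors trimmed reads to 51 bp, aligned them by Bowtie, allowing up to 2 mismatches, to the protein-coding genes of Ensembl on GRCh38, and deposited RSEM expected counts without normalization. The submitters' processing notes name Bowtie 1.2.3, RSEM 1.2.31 and CASAVA 1.8.2. Expected counts were rounded and scaled to CPM by each cell's total, with no correction for gene length, so levels are compared between cells and not between genes. Differences are upper minus lower group means of log2(CPM+1), a scale that understates changes of low genes. Genes with a count in at least 10 of 38 cells were compared and are called tested in the text, without a statistical test, and the limit was 2 in EQ and EQ-75%. Cells of 1 unnamed culture are 1 sample, so there is no p-value. Named genes were the markers, the 25 largest higher and 15 largest lower past the limit, the 3 highest and 2 lowest differences of each of 23 lists, and the 5 most abundant endothelial genes, with exceptions stated in place and 1 gene not reported here. Promoter windows were matched by symbol for 8593 of 10598 tested genes, using the first window listed for a gene. The members and lists were chosen with earlier results of these data known. Alternatives covered group size, ranking genes, scaling with scran 1.30.0 in R 4.3.3, pseudocount, filter, depth and single cells. The code for the differences was checked on simulated counts with known changes. These held counting error but no spread between cells, so genes high in only some cells were not covered. All other steps ran in Python 3.11.15, with arrays in NumPy 2.4.6, tables in pandas 2.3.3, intervals from SciPy 1.17.1 and plots from matplotlib 3.10.9.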

Additional observations from a re-analysis of the deposited data

How the results depend on the processing

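The 152 higher and 105 lower genes became 35 and 26 with 2 groups of 19 cells, 408 and 275 with a pseudocount of 0.1, 21 and 6 with a pseudocount of 10, 417 and 340 with medians in place of means, 58 and 50 with all 45 cells ranked, 981 and 824 with a limit of 1, and 24 and 5 with a limit of 3. The lower genes were 52 with TOP2A left out of the ranking and 225 with the 4 highest cells left out, a setting chosen after the data were seen, as was leaving out EC 15 (174 and 109). Leaving out each of the 24 cells in turn gave 146 to 205 higher and 92 to 133 lower genes, median differences of 1.51 to 2.06 for the mitosis lists, 0.43 to 0.73 for S phase and -0.18 to 0.23 for endothelial genes, and marker sum differences in EQ-75% of 18.99 to 22.81. The mitosis, S phase and marker sum differences were above 0 under every alternative run except the S phase median of -0.06 without both the 4 highest cells and EC 15. The mitosis median was lowest in that setting, 0.24, and was 0.55 without the 4 highest cells alone, 1.11 with groups of 19, 1.10 with a pseudocount of 10 and 1.03 with medians. The S phase median was 0.30 with CDK1 left out of the ranking and 0.24 with medians. The endothelial median, 0.00, took either sign and stayed between -0.22 and 0.23, except for 0.33 with the 4 highest cells alone as the upper group. The cause was not tested. The upper and lower groups hold different cells, so there is no pairing between them. EQ and EQ-75% share their cells, and no test was run. With 1 sample, counts of genes past the limit describe these cells only, and the lowest counts are the least precise.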
